A study of Homo sapiens with 6 samples.

Results

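The replication-dependent histone genes were taken as every entry of the deposited expression table whose symbol starts with HIST1H, HIST2H, HIST3H or HIST4H, the gene names in use with the hg19 build. The rule gave 73 of the table's 23591 genes. By the letters that follow, 6 were linker histones of class H1, 18 belonged to class H2A, 20 to H2B, 14 to H3 and 15 to H4. By the digit, 56 lay in the HIST1 cluster, 13 in HIST2, 3 in HIST3 and 1 in HIST4. The rule uses gene symbols alone, and it was set with earlier results of these data known. RefSeq lists 3 members, HIST1H2APS1, HIST2H2BA and HIST2H2BC, as transcribed pseudogenes.

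The samples were human embryonic stem cells of the established H1 line, a name unrelated to the linker histone class. In each of 2 groups 3 libraries were sequenced, wild type cells (WT) and cells labelled as a knockout of HEB (HEB KO), the E protein transcription factor encoded by TCF12. All cells grew on Matrigel in serum-free TeSR-E8 medium, with no treatment named. The knockout columns share 1 line name in the table's header, the labels do not say how the gene was altered, and neither source tells whether separate cultures or clones lie behind the replicates. The p-values therefore cover no more than the variation among these 6 libraries, part of which may be technical.

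Replication-dependent histone genes supply the proteins that wrap newly made DNA, and cells transcribe them mainly in S phase. Their mRNAs have no introns and, in place of a poly(A) tail, end at a conserved stem-loop that is bound by SLBP and cut with the help of the U7 small nuclear ribonucleoprotein. The genes sit in clusters where NPAT concentrates in histone locus bodies, and each class carries its own promoter elements, read by factors such as HINFP for H4 and POU2F1 for H2B. Because the mRNA is not polyadenylated, the kind of library matters: these were made from total RNA after removal of ribosomal RNA, per the labels' protocols, and not by poly(A) selection.

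The stem-loop was searched for in the GENCODE v29 transcripts of each gene, which give the sense strand. It was found in 32 of the 73 members, and in 31 of the 36 members whose annotated 3′ UTR has at least 30 bases, against 2 of 19599 other protein-coding genes (0.0102%). Many annotated histone transcripts stop before the stem-loop, but HIST1H2BJ and HIST1H3E had no match despite annotated 3′ UTRs of 569 and 1908 bases. A member without a match is thus only one whose annotated letters do not hold the pattern searched for. In HIST4H4 the match was not placed in an annotated 3′ UTR. The 5 forms found are shown because they are the feature that sets these mRNAs apart, each in the highest-level member that carries it. Capitals mark the 16 bases of the stem and loop, with 5 bases on either side.
HIST1H4E: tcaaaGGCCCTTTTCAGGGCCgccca
HIST1H2BD: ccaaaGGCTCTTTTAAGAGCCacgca
HIST1H2BG: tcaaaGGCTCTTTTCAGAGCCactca
HIST1H2AG: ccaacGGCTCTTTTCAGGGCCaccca
HIST1H4I: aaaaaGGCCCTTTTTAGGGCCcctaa
The form in HIST1H2BG was the most frequent, in 17 members. The forms in HIST1H4E and HIST1H2BD were in 5 members each, that in HIST1H4I in 3 and that in HIST1H2AG in 2.

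The values are taken to be FPKM, which scale a gene's reads by transcript length and library size. Comparisons of level between genes rest on that reading. They also depend on how reads with several matches were counted, which is unknown. TCF12 read 44.2, 55.7 and 51.0 FPKM in WT libraries 1 to 3 and 14.2, 6.69 and 8.28 in HEB KO libraries 1 to 3, a log2 difference of -2.31 (SE 0.28, limma adjusted p = 0.0310). The groups did not overlap, and TCF12 transcript remained in every library labelled HEB KO. The call was lost in 7 of the 17 alternatives, with limma adjusted p up to 0.193. The 10 embryonic stem cell markers examined were all at 1 FPKM or more in every library, with sums from 2090 to 3745 FPKM, lowest in HEB KO 1. That library also had the lowest summed FPKM over all genes, 440703 against 635114 to 714875 in the other 5. Depth is unknown, since FPKM holds no counts.

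Histone transcripts made up 1.45%, 2.71% and 3.84% of the summed FPKM in WT libraries 1 to 3 and 2.396%, 3.57% and 4.82% in HEB KO libraries 1 to 3. Their sums were 10296, 17188 and 27451 FPKM in WT and 10559, 23949 and 32025 FPKM in HEB KO. The group means were 18312 ± 8633 and 22178 ± 10842 (SD, n = 3), a ratio of 1.21 that lies well inside the spread, and the groups overlapped. The direction turned when WT 1 was left out (log2 ratio -0.01) or HEB KO 3 was left out (log2 ratio -0.09). In bulk samples, the number of cells in S phase and the histone RNA in each cell cannot be told apart.

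By class, the ratio of the HEB KO to the WT mean was 1.10 for H1, 1.31 for H2A, 1.15 for H2B, 1.34 for H3 and 1.20 for H4, and the groups overlapped in every class. Without WT 1 the log2 ratio was below 0 for H1 (-0.13), H2B (-0.11) and H4 (-0.02), and without HEB KO 3 for the same classes (-0.19, -0.15 and -0.15). When each library was left out in turn it ran from 0.05 to 0.79 for H2A and from 0.06 to 0.85 for H3. H4 held the largest part of the WT total, 26.9% ± 0.28 (SD, n = 3), ahead of H2B with 25.7% ± 1.74, which lay within its spread of H4. H2A followed with 18.4% ± 1.52, then H1 with 15.1% ± 0.991 and H3 with 13.9% ± 0.352. In HEB KO the parts were 26.0% ± 1.83 for H4, 24.8% ± 0.627 for H2B, 19.8% ± 0.859 for H2A, 15.4% ± 0.507 for H3 and 14.05% ± 1.90 for H1, so that H3 and H1 stood in the other order, within the spread of H1. Of the class parts, only that of H3 did not overlap between groups. It was 13.5%, 14.1% and 14.0% in WT and 14.8%, 15.8% and 15.5% in HEB KO. The parts sum to 100%, so they are not independent, and no test was run on them. The total meanwhile differed 2.67-fold between the lowest and highest library in WT and 3.03-fold in HEB KO.

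**Figure D1:**
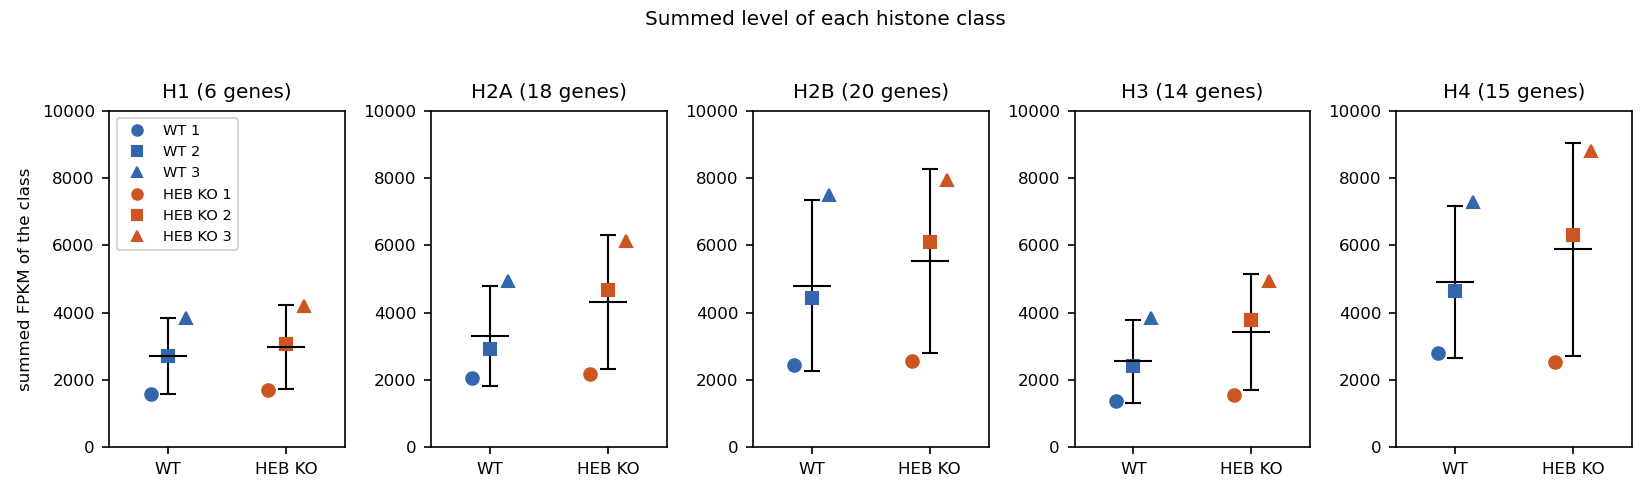
Summed FPKM of each histone class (linear axis from 0) in the 3 WT (blue) and 3 HEB KO (orange) libraries; horizontal bars are group means and whiskers 1 SD (n = 3). In every class library 1 is the lowest and library 3 the highest of its group, and the groups overlap.

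The libraries of 1 group differed more than the groups did, and in nearly all members in the same way. Of the 62 members with at least 1 FPKM in at least 3 libraries, 56 (90.3%) were lowest in the library numbered 1 in both groups, against 19.7% of the other 12875 genes tested. In 55 members (88.7%) the library numbered 3 was the highest in both groups, against 14.7% of the other genes. The median ratio of library 3 to library 1 was 2.99 in WT and 3.10 in HEB KO for the members, and 0.946 and 1.01 for the other genes. All 12 tested H4 genes followed both patterns, and all 11 tested H3 genes were lowest in libraries 1.

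This pattern was set beside gene length, because histone mRNAs are short. Relative to the mean of the 6 libraries, the median member deviated on the log2(FPKM + 1) scale by -0.98, -0.12 and 0.57 in WT 1 to 3 and by -0.73, 0.48 and 0.84 in HEB KO 1 to 3. The 60 other protein-coding genes whose longest transcript has at most 700 bases deviated by -0.19, 0.06 and 0.39 in WT and by -0.66, 0.13 and 0.29 in HEB KO. The 2310 coding genes over 6000 bases ran the other way, at 0.18, 0.03 and -0.12 in WT and 0.24, -0.20 and -0.15 in HEB KO. Short genes as a group thus moved in the direction of the histone genes in every library but WT 2, where the signs differed. The amount was similar in HEB KO 1 and smaller in WT 1, WT 3, HEB KO 2 and HEB KO 3. By longest annotated transcript, some histone members, such as HIST1H2BG, are themselves longer than 700 bases. The part of length or fragment size in the pattern was not tested.

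Genes of DNA replication did not show the same order in WT. The 45 S-phase DNA synthesis genes deviated by 0.12, -0.20 and 0.11 in WT 1 to 3, where the histone members spanned -0.98 to 0.57, and by -0.44, 0.21 and 0.14 in HEB KO. The 22 mitosis genes deviated by 0.11, 0.25 and 0.17 in WT and by -0.50, -0.06 and 0.07 in HEB KO. The 10 tested genes of replication-independent and variant histones, whose mRNAs are mostly polyadenylated, deviated by -0.06, 0.06 and 0.21 in WT and by -0.34, 0.15 and 0.18 in HEB KO. In WT 1 none of these 3 sets came near the deviation of the replication-dependent genes, while in HEB KO 1 every one of them was low.

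**Figure D2:**
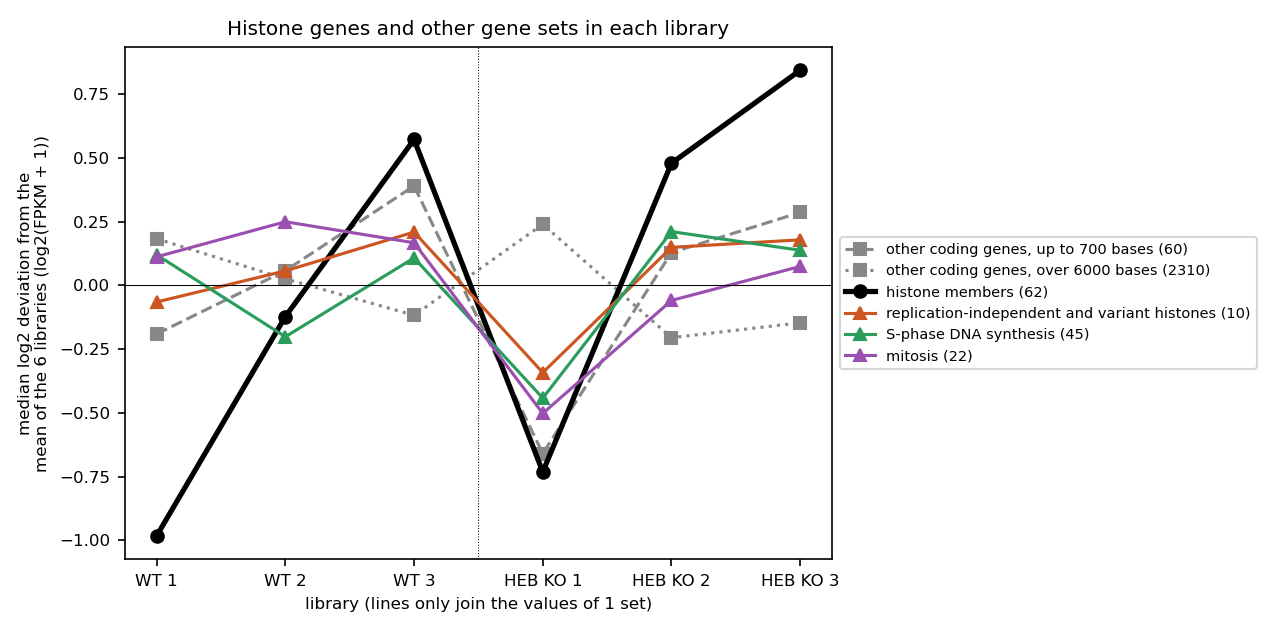
Median deviation of 6 gene sets from the mean of the 6 libraries (vertical axis, log2(FPKM + 1) units) in each library (horizontal axis); numbers in the legend count genes, and lines only join the values of 1 set. The histone members reach from -0.98 in WT 1 to 0.84 in HEB KO 3, short coding genes follow in part, and coding genes over 6000 bases run the other way.

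No histone gene passed the test between HEB KO and WT. With limma on log2(FPKM + 1) and Benjamini-Hochberg adjustment over the 12937 genes tested, 0 of the 62 tested members were called at an adjusted p under 0.05, where 31 of all genes were (0.24%), 0.0232% higher and 0.216% lower in HEB KO. At an unadjusted p under 0.05 there were 3 members, HIST1H1A, HIST1H3C and HIST2H3D, against 10% of all genes. The log2 difference was above 0 in 52 members and below 0 in 10, with a median of 0.42, while 45.2% of all genes lay above 0 and their median was -0.04. The members share their libraries and moved together in them, so this lean is not 52 separate observations. Groups did not overlap in 2 members, HIST1H1A and the pseudogene HIST2H2BC, both higher in HEB KO, where 7.72% of all genes were, and in 0 members lower in HEB KO, where 11.8% were.

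These counts moved with the libraries used. Without HEB KO 1 a single member, HIST1H1A, was called (log2 difference 2.196, limma adjusted p = 0.0454), beside 0.587% of all genes, 0.0696% higher in HEB KO. Without both libraries numbered 1 there were 4, HIST1H1A, HIST1H2AK, HIST1H3C and HIST2H3D, all higher in HEB KO, beside 3.71% of all genes, 1.48% higher in HEB KO. With a weight estimated for each library, which gave HEB KO 1 a weight of 0.134 and HEB KO 3 one of 4.24, 20 members were called, all higher in HEB KO, beside 14.5% of all genes, 6.53% higher in HEB KO.

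**Figure D3:**
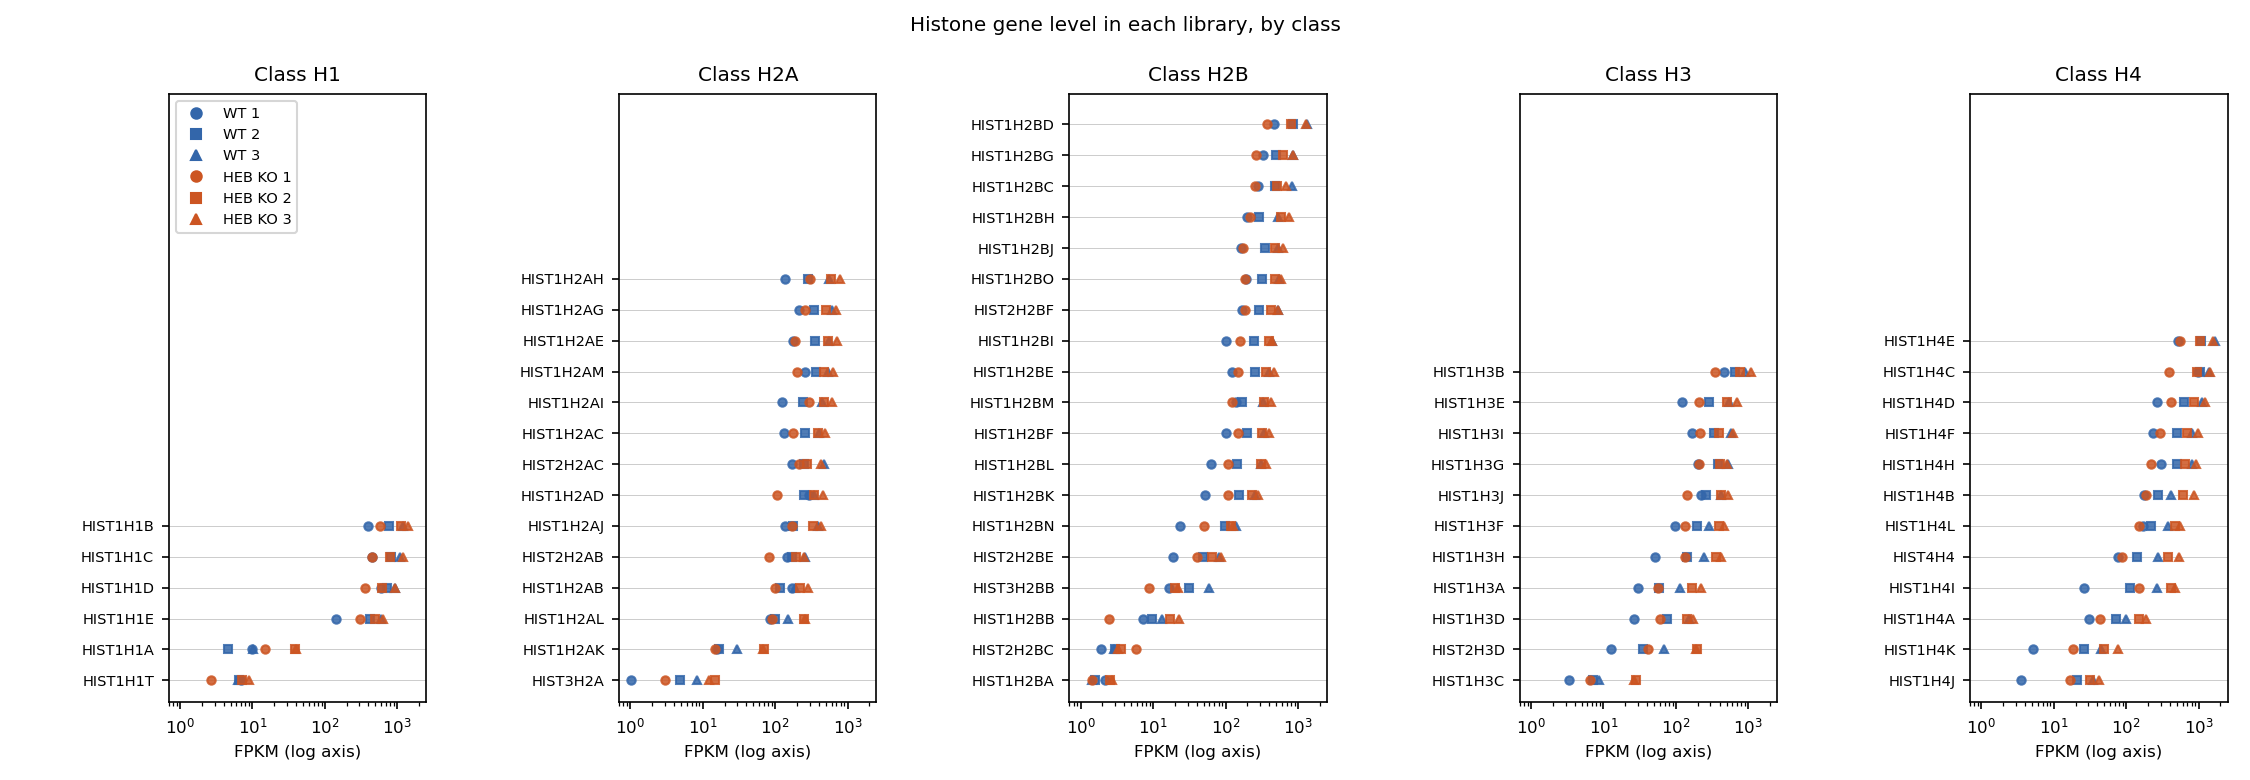
FPKM (log axis) of each of the 62 tested histone genes in the 6 libraries, in 1 panel per class and ordered by mean level; colour gives the group and shape the replicate number. Circles, libraries numbered 1, lie leftmost in most rows, and blue and orange overlap in 60 of the 62 rows.

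Linker histones of class H1 bind DNA where it enters and leaves the nucleosome. Of the 6 genes, 4 had a log2 difference above 0 and 2 below, with 0 called. HIST1H1B (H1.5) had the highest mean level, reading 394, 758 and 1212 FPKM in WT and 584, 1127 and 1412 in HEB KO. The groups overlapped, with means of 788 ± 410 and 1041 ± 421 (SD, n = 3), and the log2 difference was 0.45 (SE 0.56, limma adjusted p = 0.806). HIST1H1C (H1.2) was almost level between groups, at 448, 810 and 1095 FPKM in WT and 447, 790 and 1191 in HEB KO. Its log2 difference of 0.03 (SE 0.52, limma adjusted p = 0.992) changed sign in 3 of the fits that left out a library. HIST1H1D (H1.3) ranged from 364 to 922 FPKM and HIST1H1E (H1.4) from 142 to 626 FPKM.

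HIST1H1A (H1.1), a subtype known to be restricted to a few tissues, was a low-level gene with the largest separation of the class. It read 9.82, 4.55 and 10.1 FPKM in WT and 14.9, 38.4 and 39.6 in HEB KO. All HEB KO values exceeded all WT values, and unlike 57 of the 62 tested members it was not lowest in WT 1. The means were 8.16 ± 3.13 and 31.0 ± 13.9 FPKM (SD, n = 3), a ratio of 3.80. The log2 difference was 1.75 (SE 0.43), with a limma unadjusted p of 0.00363 and adjusted p of 0.268, and over the alternatives the adjusted p ran from 0.000638 to 0.776. HIST1H1T, the testis subtype, read from 2.72 to 9.06 FPKM.

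All 6 H1 promoters carried the H1 box AAACACA on either strand in the 250 bases before the start, which 4.82% of 35116 RefSeq promoters did and no promoter of another histone class did. All promoter searches here covered both strands. In the windows below, from RefSeq for GRCh38.p14 and ending at the base before the start, capitals mark the H1 box, the CCAAT box or its reverse complement, and the TATA box TATAAA. They are shown because the highest-level H1 gene and the gene with the largest difference differ in matches to these exact letters near the start. Near matches, such as tatataa in HIST1H1B, were not counted. HIST1H1B is at chr6:27867589-27867723 and HIST1H1A at chr6:26017788-26017922, both on the minus strand.
HIST1H1B: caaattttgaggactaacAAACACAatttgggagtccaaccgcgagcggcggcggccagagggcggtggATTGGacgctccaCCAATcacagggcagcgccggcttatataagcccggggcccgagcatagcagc
HIST1H1A: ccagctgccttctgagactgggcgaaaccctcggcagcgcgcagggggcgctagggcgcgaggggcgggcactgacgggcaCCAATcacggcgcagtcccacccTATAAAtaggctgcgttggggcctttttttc
HIST1H1B has its nearer H1 box 117 bases before the start. In HIST1H1A the only match lies on the other strand, 183 bases before the start and so outside the window shown. The letters say nothing about which factor was bound.

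H2A and H2B pair as dimers in the nucleosome, and many of their genes lie head to head. In class H2A, 14 of 18 genes were tested, 12 had a log2 difference above 0, and 0 were called. HIST1H2AH had the highest mean, with 138, 283 and 558 FPKM in WT and 299, 586 and 791 in HEB KO. Its groups overlapped, and the log2 difference was 0.89 (SE 0.58, limma adjusted p = 0.638). HIST1H2AG came next with 212, 339 and 618 FPKM in WT and 259, 503 and 687 in HEB KO (log2 difference 0.33, SE 0.52, limma adjusted p = 0.848). The other 12 tested genes ranged in mean from 7.31 FPKM for HIST3H2A to 422.6 FPKM for HIST1H2AE.

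HIST1H2AK, among the 4 members called without both libraries 1, read 15.8, 16.9 and 29.4 FPKM in WT and 14.6, 69.4 and 67.3 in HEB KO. HEB KO 1 lay below all WT libraries and the other 2 HEB KO libraries above them. In GENCODE v29 it overlaps HIST1H2BN on the genome, as does HIST1H2AL, and without knowing how strand was used their reads cannot be told apart. HIST1H2AI and HIST1H2AJ share 83.0% and 84.5% of the 50-base windows of their coding sequence with other members, so that the split of reads between them is uncertain.

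In class H2B, 19 of 20 genes were tested, 15 lay above 0 and 4 below, and 0 were called. HIST1H2BD, the highest, read 473, 855 and 1322 FPKM in WT and 376, 796 and 1278 in HEB KO. With means of 883 ± 425 and 817 ± 451 FPKM (SD, n = 3) its log2 difference was -0.16 (SE 0.59, limma adjusted p = 0.945), and quantile normalization turned the sign. HIST1H2BG read 334, 504 and 848 FPKM in WT and 262, 622 and 848 in HEB KO, a log2 difference of -0.02 (SE 0.55, limma adjusted p = 0.995) whose sign turned under all 3 scalings tried. HIST2H2BC, the pseudogene and the other member without overlap, read 1.92, 2.98 and 2.90 FPKM in WT and 5.74, 3.60 and 3.23 in HEB KO. It was highest in HEB KO 1, the reverse of the pattern of the class, and its limma adjusted p was 0.539. It overlaps HIST2H2BD in the annotation.

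The octamer ATTTGCAT, the element read by POU2F1, was in 14 of 18 H2B promoters and 11 of 16 H2A promoters, where it can lie in a stretch shared by a head-to-head pair. It was in 1.63% of all RefSeq promoters and in 0 of the H1, H3 and H4 promoters. The windows of the 2 highest-level H2B genes are shown because 1 holds the octamer and the other does not; capitals mark it and the TATA box. HIST1H2BG is at chr6:26216689-26216818 on the minus strand and HIST1H2BD at chr6:26157991-26158120 on the plus strand of GRCh38.p14.
HIST1H2BG: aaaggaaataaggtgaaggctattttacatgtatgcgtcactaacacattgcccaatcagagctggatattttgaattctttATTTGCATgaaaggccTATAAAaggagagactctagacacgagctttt
HIST1H2BD: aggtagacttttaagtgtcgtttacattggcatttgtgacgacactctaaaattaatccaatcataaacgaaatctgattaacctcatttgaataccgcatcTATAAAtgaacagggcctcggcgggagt
HIST1H2BG has the octamer 48 bases before the start. HIST1H2BD, with no match in the 250 bases, had the higher mean level, 849.95 against 569.7 FPKM.

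Class H3 was the only class in which all tested genes, 11 of 14, had a log2 difference above 0, with a median of 0.73 and 0 called. The highest, HIST1H3B, was nearly level, at 458, 647 and 906 FPKM in WT and 349.99, 773 and 1089 in HEB KO (log2 difference 0.05, SE 0.52, limma adjusted p = 0.986), and its sign turned in 3 of the fits that left out a library. HIST1H3E read 122, 291 and 543 FPKM in WT and 207, 505 and 709 in HEB KO (log2 difference 0.65, SE 0.64, limma adjusted p = 0.760). The larger differences were in genes of lower level, named here after their values were seen. HIST2H3D read 12.8, 35.4 and 68.3 FPKM in WT and 41.4, 198 and 189 in HEB KO, so that only HEB KO 1 lay among the WT values. Its log2 difference was 1.84 (SE 0.74, limma adjusted p = 0.453), and 38.2% of its coding windows occur also in HIST2H3A or HIST2H3C. HIST1H3C read 3.32, 7.26 and 8.72 FPKM in WT and 6.59, 28.5 and 26.7 in HEB KO, again with HEB KO 1 among the WT values (log2 difference 1.39, SE 0.55, limma adjusted p = 0.450).

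All 10 H3 promoters in the table held a CCAAT box, as did all 6 H1, 16 H2A and 18 H2B promoters, against 32.0% of all RefSeq promoters. Windows of the highest-level H3 gene and of the H3 gene with the largest difference are shown, with the CCAAT box and the TATA box in capitals. HIST1H3B is at chr6:26032100-26032204 and HIST2H3D at chr1:149813694-149813798, both on the minus strand of GRCh38.p14.
HIST1H3B: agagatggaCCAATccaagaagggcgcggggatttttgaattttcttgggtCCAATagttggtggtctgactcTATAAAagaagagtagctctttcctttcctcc
HIST2H3D: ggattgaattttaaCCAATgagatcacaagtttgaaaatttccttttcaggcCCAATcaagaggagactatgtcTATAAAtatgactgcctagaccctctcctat
Both genes have a pair of CCAAT boxes and a TATA box, although their mean levels were 704 and 90.8 FPKM.

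Histone H4 forms a tetramer with H3 at the core of the nucleosome. Of 15 genes 12 were tested, 10 lay above 0 and 2 below, and 0 were called. HIST1H4E, the highest of all members, read 520.3, 1083 and 1695 FPKM in WT and 556, 1059 and 1558 in HEB KO, a log2 difference of -0.02 (SE 0.60, limma adjusted p = 0.995) whose sign turned under all 3 scalings tried. HIST1H4C read 980.5, 1059 and 1377 FPKM in WT and 389, 958 and 1431 in HEB KO (log2 difference -0.47, SE 0.55, limma adjusted p = 0.794). It kept the common order of libraries, but its WT values spanned 1.40-fold from the lowest library to the highest while those of HIST1H4E spanned 3.26-fold. Narrow WT spans were also found in other classes, such as 1.35-fold for HIST1H2AD and 1.55-fold for HIST1H1D. HIST1H4I, named after its values were seen, had the largest difference of the class, with 26.3, 114 and 266 FPKM in WT and 150.4, 419 and 466 in HEB KO (log2 difference 1.71, SE 0.81, limma adjusted p = 0.525). HIST4H4, which stands alone on chromosome 12, read 77.4, 142 and 278 FPKM in WT and 87.6, 383 and 543 in HEB KO (log2 difference 0.85, SE 0.73, limma adjusted p = 0.716).

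The H4 promoters were marked by GGTCCG, part of the element read by HINFP. It was in 12 of 13 H4 promoters, always starting 44 to 47 bases before the start, against 9.43% of all RefSeq promoters. The exception was HIST1H4G, which read at most 0.675 FPKM. HIST2H4A and HIST2H4B carry GGTCCG but read at most 0.139 and 0.289 FPKM, values that are uncertain for reasons given below. The CCAAT box was in 3 of the 13. Windows of 4 genes that differ in level and cluster are shown, with GGTCCG and the TATA box in capitals. In GRCh38.p14 HIST1H4E is at chr6:26204550-26204609 and HIST1H4I at chr6:27139222-27139281 on the plus strand, and HIST1H4D at chr6:26189113-26189172 and HIST4H4 at chr12:14771132-14771191 on the minus strand.
HIST1H4E: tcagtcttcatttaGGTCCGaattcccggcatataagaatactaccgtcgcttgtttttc
HIST1H4D: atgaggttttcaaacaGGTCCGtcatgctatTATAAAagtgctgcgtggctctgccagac
HIST1H4I: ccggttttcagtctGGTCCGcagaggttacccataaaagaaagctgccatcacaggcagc
HIST4H4: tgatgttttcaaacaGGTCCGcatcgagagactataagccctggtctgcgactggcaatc
The HIST4H4 window carries the same 6 letters as those from the HIST1 cluster, although the gene lies on another chromosome. The E-box CAGNTG, the letters E proteins such as HEB bind, was in 25 of the 63 member promoters searched (39.7%) and in 42.5% of all RefSeq promoters.

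Across clusters, HIST1 held 94.0% ± 0.359 of the histone FPKM in WT and 93.5% ± 0.163 in HEB KO (SD, n = 3), and HIST2 held 4.95% ± 0.259 and 4.97% ± 0.347. The HIST2 part is uncertain, because reads of its duplicated genes, described below, may have been counted at other members or not at all. The ratio of HEB KO to WT means was 1.21 for HIST1 and 1.18 for HIST2, with overlap in both. HIST4 with its 1 gene had a ratio of 2.04, also with overlap. HIST3 had a ratio of 0.662, also with overlap, from sums of 18.1, 36.4 and 67.6 FPKM in WT and 11.9, 34.8 and 34.1 in HEB KO. That value rested on HIST3H2BB, and without it the log2 ratio of the cluster went from -0.60 to 1.06; without WT 3 it was -0.0175. As a part of the histone FPKM, HIST3 held 0.176%, 0.212% and 0.246% in WT and 0.113%, 0.145% and 0.107% in HEB KO. These parts did not overlap between groups, and no test was run on them. For HIST1 and HIST2 the log2 ratio was below 0 without WT 1 (-0.0148 and -0.0402) or without HEB KO 3 (-0.0922 and -0.0729). In HIST2 the highest member, HIST2H2BF, read 167, 291 and 537 FPKM in WT and 186, 425 and 534 in HEB KO (log2 difference 0.23, SE 0.55, limma adjusted p = 0.910). Of its coding windows 45.3% occur in other members, so that its level is uncertain too.

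Because the total differed so much between libraries, each gene was also given as a percentage of the summed FPKM of its class in the same library, a measure that a common factor on the class leaves as it was. The shares of 29 of the 62 tested members (46.8%) did not overlap between groups, 18 higher and 11 lower in HEB KO. The same measure over the 154 tested genes of the 7 lists described below, each as a share of its list and 2 of them in a pair of lists (156 values), gave 21.2% without overlap, 12.2% higher and 8.97% lower. Without HEB KO 1 the count was 36 (58.1%), where the listed genes gave 35.3%. Without both libraries 1 it was 43 (69.4%), where the listed genes gave 50.6%. With fewer libraries, groups separate more easily for any gene. A percentage over all genes is not given for this measure. The lists were chosen by hand and differ from the histone classes in make-up. The percentages of members and listed genes are therefore not a like comparison, and their difference was not tested. Separation of 3 values from 3 has a two-sided exact permutation p of 0.1, the smallest this design allows, for any 1 gene. Shares within a class sum to 100%, so that the members' shares are not independent.

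By class, shares without overlap were found in 3 of 6 H1 genes, 4 of 14 H2A genes, 9 of 19 H2B genes, 7 of 11 H3 genes and 6 of 12 H4 genes. A mean of 200 FPKM or more was found in 9 of the 11 members with a lower share in HEB KO, 11 of the 18 with a higher share and 41 of all 62 tested members, and a link with level was not tested. The examples that follow were chosen after their values were seen, apart from those named by level above.

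In class H4, HIST1H4C gave 35.1%, 22.8% and 18.9% of the class in WT and 15.4%, 15.1% and 16.2% in HEB KO. HIST1H4I went the other way, with 0.944%, 2.45% and 3.64% in WT and 5.95%, 6.62% and 5.28% in HEB KO. HIST1H4B gave 6.22%, 5.91% and 5.67% in WT and 7.52%, 9.65% and 9.67% in HEB KO. In each of these 3 genes every HEB KO library lay on 1 side of every WT library, and for HIST1H4C and HIST1H4I the WT libraries differed widely among themselves.

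In class H3, HIST1H3B gave 27.7% ± 4.82 of the class in WT and 21.6% ± 1.03 in HEB KO (SD, n = 3). HIST1H3H gave 5.28% ± 1.37 in WT and 8.88% ± 0.471 in HEB KO. HIST2H3D gave 1.38% ± 0.432 in WT and 3.90% ± 1.30 in HEB KO. None of the 3 overlapped between the groups.

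In class H1, HIST1H1B gave 28.0% ± 3.43 in WT and 34.8% ± 1.68 in HEB KO, HIST1H1D 29.4% ± 7.003 and 21.1% ± 0.874, and HIST1H1A 0.348% ± 0.236 and 1.02% ± 0.203 (SD, n = 3). In class H2B, HIST1H2BD gave 18.69% ± 0.939 in WT and 14.6% ± 1.55 in HEB KO. The tightest separation was that of HIST3H2BB, at 0.683%, 0.710% and 0.789% in WT and 0.348%, 0.328% and 0.274% in HEB KO. In class H2A, HIST1H2AH gave 9.20% ± 2.33 and 13.0% ± 0.548, and HIST2H2AB 6.05% ± 1.01 and 3.97% ± 0.258.

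**Figure D4:**
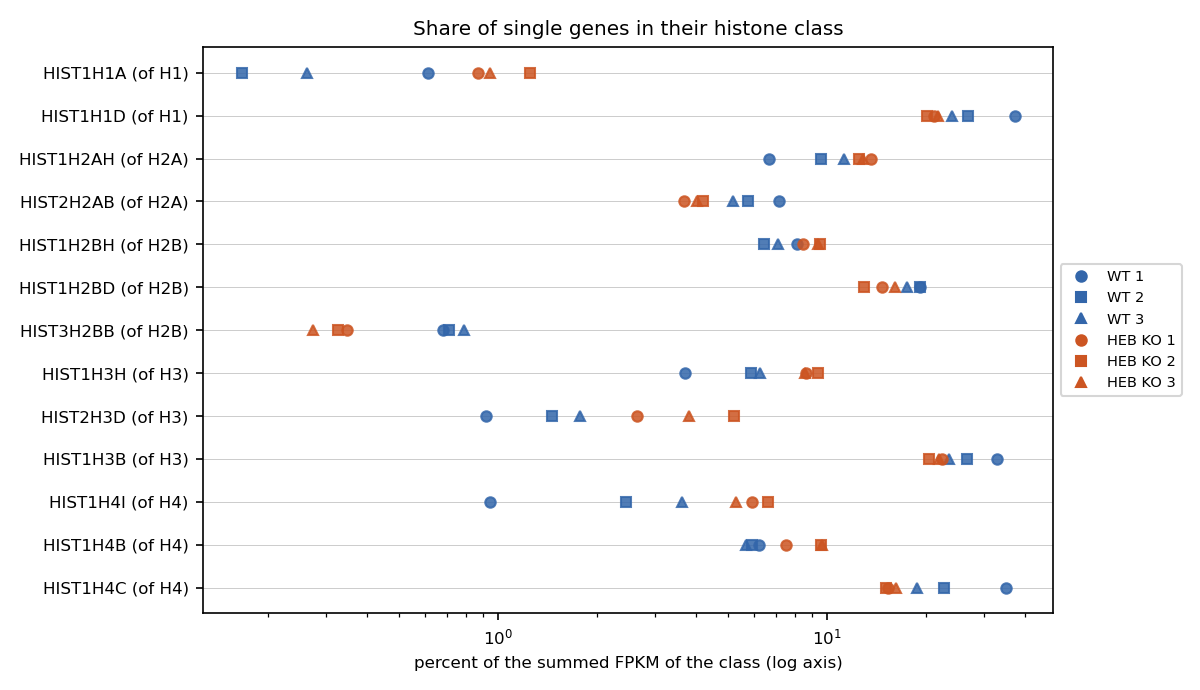
Share of 13 single genes in the summed FPKM of their class (percent, log axis) in the 3 WT (blue) and 3 HEB KO (orange) libraries; shape gives the replicate number. The genes were chosen after their values were seen as examples without overlap, so the separation in each row is a description.

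Of the head-to-head pairs, 10 have an H2A and an H2B gene past the filter with annotated 5′ ends less than 1000 bases apart. The log2 difference between HEB KO and WT had the same sign in both genes of 6 pairs. The ratio of H2A to H2B did not overlap between groups in 4 of the 10 pairs, higher in HEB KO in 3 and lower in 1. Ratios were not taken over pairs of other genes, so this count has no background to be read against. HIST1H2AC to HIST1H2BC, for example, had a log2 ratio of -1.06, -0.89 and -1.03 in WT and -0.53, -0.43 and -0.51 in HEB KO. HIST2H2AC to HIST2H2BE went the other way, with 3.202, 2.396 and 2.52 in WT and 2.37, 2.08 and 2.33 in HEB KO. Of the coding windows of HIST2H2AC 30.8% occur in other members, and of those of HIST2H2BE 47.1%, so that this ratio is uncertain.

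HIST3H2A and HIST3H2BB stood apart from the other pairs. HIST3H2A read 1.03, 4.80 and 8.20 FPKM in WT and 2.97, 14.6 and 12.2 in HEB KO, while HIST3H2BB read 16.8, 31.6 and 59.3 in WT and 8.91, 20.01 and 21.8 in HEB KO. Neither gene alone separated the groups, with log2 differences of 0.97 (SE 0.66, limma adjusted p = 0.651) and -0.96 (SE 0.49, limma adjusted p = 0.549). The log2 ratio of HIST3H2A to HIST3H2BB was -4.02, -2.72 and -2.85 in WT and -1.58, -0.45 and -0.83 in HEB KO, without overlap, and the means differed by 2.24. The next largest upward difference among the pairs was 0.51. The difference was 2.56 without HEB KO 1 and 2.14 without both libraries 1. This pair was singled out after its values were seen, so these values describe it and are not a test.

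The stretch between these genes is shown because transcription of HIST3H2A starts inside it and that of HIST3H2BB just after it, in opposite directions. It is the 250 bases before the start of HIST3H2BB, at chr1:228457853-228458102 on the plus strand of GRCh38.p14, with the CCAAT box or its reverse complement in capitals.
HIST3H2BB: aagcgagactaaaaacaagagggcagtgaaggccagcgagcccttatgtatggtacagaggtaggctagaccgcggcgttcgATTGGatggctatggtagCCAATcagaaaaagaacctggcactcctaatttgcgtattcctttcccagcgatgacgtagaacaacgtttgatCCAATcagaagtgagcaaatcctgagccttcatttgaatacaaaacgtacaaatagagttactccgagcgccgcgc
It holds CCAAT boxes in both orientations and no match to the octamer, the TATA box or the E-box. Of the coding windows of HIST3H2BB 8.51% occur in another histone gene, and of those of HIST3H2A 0%.

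**Figure D5:**
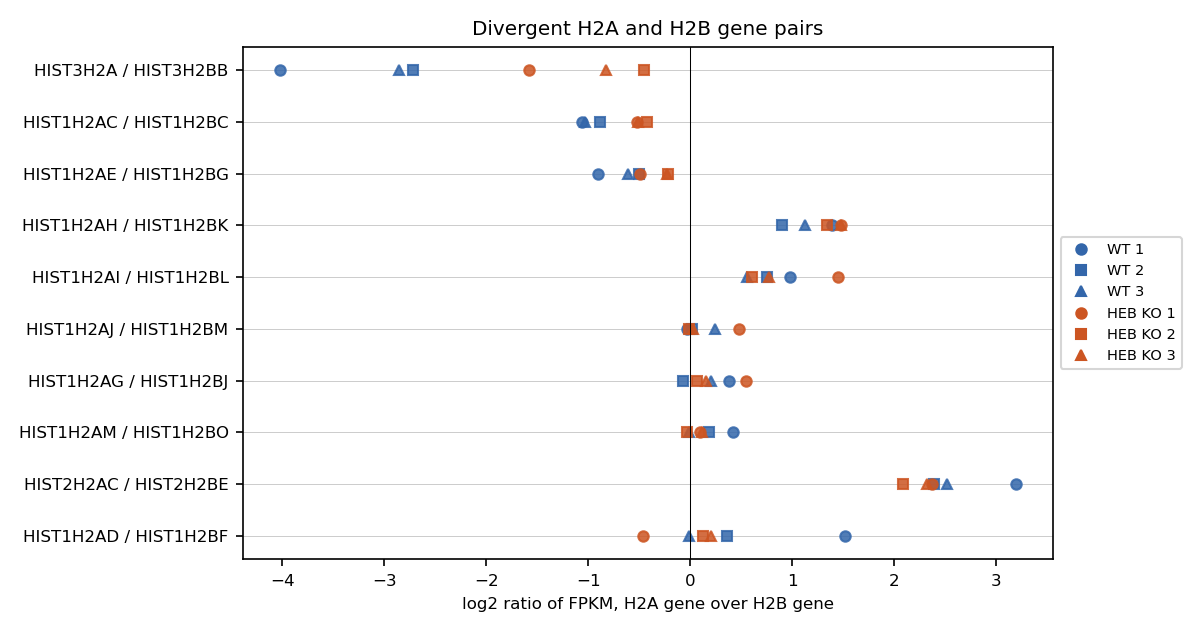
Log2 ratio of FPKM of the H2A gene over the H2B gene (horizontal axis) for 10 head-to-head pairs in the 3 WT (blue) and 3 HEB KO (orange) libraries; shape gives the replicate number. HIST3H2A over HIST3H2BB goes from -4.02 to -2.72 in WT to -1.58 to -0.45 in HEB KO, the widest gap among the pairs.

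Of the 73 members, 11 stayed below the filter, with a highest value of 0.959 FPKM, and HIST1H2APS1 was listed at 0 in every library. Among them were HIST1H2AA and HIST3H3, which with HIST1H2BA and HIST1H1T are known mainly from testis; HIST1H2BA read 1.42 to 2.70 FPKM. Also below the filter were 6 HIST2 genes of duplicated pairs, HIST2H2AA3, HIST2H2AA4, HIST2H3A, HIST2H3C, HIST2H4A and HIST2H4B. All 50-base windows of their coding sequences occur in another member, and they read at most 0.289 FPKM. HIST1H4J and HIST1H4K, which are likewise identical to each other over the windows, read up to 41.4 and 76.5 FPKM. A low value of such a gene is uncertain, since no source used here tells how reads with several matches were counted. The sums and parts of HIST2 and of classes H2A, H3 and H4, which include these genes, share that uncertainty. Of the others, 47 members had a mean of 100 FPKM or more and 12 of 500 FPKM or more, and the 5 highest genes held 23.1% of the histone total.

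Genes that make, handle or need histone mRNA were examined in 7 lists, and 0 of their 154 tested genes were called, where 0.24% of all genes were. At an unadjusted p under 0.05 in limma there were 10 of them, where 10% of all genes were. Of the 20 genes of histone mRNA 3′ end processing, 10 lay above 0 and 10 below. SLBP read 29.2, 27.3 and 32.2 FPKM in WT and 13.96, 30.4 and 25.2 in HEB KO, with only HEB KO 1 far from the rest (log2 difference -0.40, SE 0.29, limma adjusted p = 0.676). LSM11, a protein of the U7 particle, read 5.37, 6.06 and 6.56 FPKM in WT and 2.93, 3.12 and 4.48 in HEB KO, without overlap (log2 difference -0.65, SE 0.21, limma adjusted p = 0.378). SRRT went the other way, also without overlap, with 13.2, 12.4 and 14.3 FPKM in WT and 21.2, 19.7 and 21.6 in HEB KO (log2 difference 0.61, SE 0.18), and had the smallest limma adjusted p of the list, 0.353. These 3 were named after values were seen. SNRPB and SNRPD3, ring proteins shared by the spliceosome and U7 particles, were the highest of the list. They ranged from 103 to 297 and from 57.2 to 139 FPKM, with overlap between groups.

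Of the 13 genes of histone mRNA decay and translation 3 lay above 0 and 10 below. The decapping enzyme DCP2 read 78.2, 76.3 and 83.4 FPKM in WT and 49.0, 59.6 and 70.5 in HEB KO, without overlap (log2 difference -0.42, SE 0.23, limma adjusted p = 0.573). LSM4, of the ring that binds RNA ends for decay, ranged from 66.2 to 153 FPKM with overlap. Of the 19 genes of histone gene transcription 10 lay above 0. NPAT read 15.7, 8.44 and 11.7 FPKM in WT and 14.7, 13.6 and 11.6 in HEB KO, and HINFP 8.15, 10.4 and 10.9 in WT and 6.50, 10.4 and 12.6 in HEB KO, both with overlap. The cyclin CCNA2 read 79.5, 86.8 and 94.2 FPKM in WT and 37.7, 75.2 and 74.4 in HEB KO, all HEB KO values below all WT values (log2 difference -0.53, SE 0.31, limma adjusted p = 0.596). YY1 overlapped, at 34.3 to 49.6 FPKM.

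Among replication-independent and variant histones, 10 of the 18 in the table were tested, with 3 above 0 and 7 below. H2AFZ, the variant H2A.Z, read 689, 623 and 711 FPKM in WT and 319, 739.6 and 704 in HEB KO, with only HEB KO 1 low (log2 difference -0.29, SE 0.43, limma adjusted p = 0.837). H3F3B, which encodes H3.3, ranged from 106 to 255 FPKM. H3F3A, also an H3.3 gene, was not tested. It read 3.88 FPKM in HEB KO 2 and at most 0.00211 FPKM in every other library. How its reads were counted is unknown, so a low value does not show that the gene was silent. Of 27 chaperone and deposition genes 9 lay above 0 and 18 below, led in level by NPM1 (782 to 2409 FPKM) and SET (288 to 790.3 FPKM). Both of these were lowest in HEB KO 1 and overlapped between groups.

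Of 45 S-phase DNA synthesis genes 21 lay above 0 and 24 below, with a median log2 difference of -0.01. The sliding clamp PCNA read 190.4, 159.9 and 237 FPKM in WT and 91.1, 200.2 and 187 in HEB KO (log2 difference -0.36, SE 0.37, limma adjusted p = 0.768). The helicase subunit MCM7 read 99.6, 115 and 136 FPKM in WT and 80.5, 142 and 148 in HEB KO (log2 difference 0.04). Of 22 mitosis genes 2 lay above 0 and 20 below, with a median of -0.32, and groups did not overlap in 7, all lower in HEB KO, where 11.8% of all genes were. They included CDK1, with 145, 185 and 168 FPKM in WT and 81.5, 122 and 133 in HEB KO (log2 difference -0.59, SE 0.28, limma adjusted p = 0.531). TOP2A, which untangles DNA, read 159, 171 and 161 FPKM in WT and 94.3, 108 and 142 in HEB KO (log2 difference -0.53, SE 0.26, limma adjusted p = 0.535). The median mitosis gene was low mainly in HEB KO 1, at the deviation of -0.50 given above, and a difference between the histone and mitosis sets was not tested.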

How the data were processed

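The 6 libraries share 1 deposited table of 23619 entries, whose unit the labels do not name. The authors' values were read as FPKM, because column sums are unequal and low values fall with transcript length up to 4000 bases, though not beyond in most libraries. Per the submitters' processing notes, alignment used Bowtie2 2.2.6 and TopHat2 2.1.0, with hg19 as the build. Which quantifier and annotation were used, and how strand was treated, is not given in the sources used here. Entries with a date for a symbol (28) were left out, and 146 values above 0 but below 1e-10 were kept as they stood.

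The 12937 genes that reached 1 FPKM in 3 or more libraries were tested on log2(FPKM + 1) with limma 3.58.1 (intensity trend, R 4.3.3), HEB KO against WT, with Benjamini-Hochberg adjustment over all of them at 0.05. Fold changes on this scale understate those of low genes. Count tests were planned only for counts, which the table does not hold, and the depth of the libraries is unknown. Sums, shares and ratios used FPKM in Python 3.11.15 and got no test. The fit was tested on simulated data.

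Genes named by rule were TCF12, the 2 members with the highest mean in each class, the highest in each smaller cluster, members without overlap whose mean reached 5 FPKM in either group, and the 2 highest of each list. Members and lists were chosen with earlier results of these data known.

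Promoters came from RefSeq (GRCh38.p14), a build other than hg19, and matched 63 members at 1 start; HIST1H2AH, HIST1H2APS1, HIST1H3D, HIST1H3E, HIST1H3I, HIST1H3J, HIST1H4A, HIST1H4C, HIST2H2BA and HIST2H2BC were not used. Transcripts came from GENCODE v29. Alternatives changed the pseudocount (0.1, 5), the filter (none, 5 FPKM), scaling (TMM, median ratio, quantile), variance trend, library weights, a replicate block and the libraries used; share and pair ratios without libraries 1 were added after seeing the data.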

Additional observations from a re-analysis of the deposited data

How the results depend on the processing

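The count of genes called over the whole table, 31, was 11 when low genes were kept, 18 when 5 FPKM was required, 1874 with library weights, 10 with the replicate block and 480 without both libraries numbered 1. Leaving out a single library gave 7 to 76 (7 without WT 1, 9 without WT 2, 10 without WT 3, 76 without HEB KO 1, 9 without HEB KO 2 and 7 without HEB KO 3). Histone members called, 0, became 20 with library weights, 4 without both libraries 1, and 0 to 1 without a single library. Listed genes called, 0, became 10 with library weights and 1 without both libraries 1. The log2 ratio of the HIST3 cluster, -0.60, became 1.06 without its highest member, which follows from the opposite directions of its genes; HIST4 has 1 member, so that sum could not be taken. Other causes were not tested.

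Replicate numbers correlated within pairs by 0.262, -0.0399 and 0.269 over all genes, and they were not taken as pairs. Over all combinations of a WT and a HEB KO library, the highest value was 0.408, for WT 3 with HEB KO 2. The lowest was -0.425, for WT 3 with HEB KO 1. That check covers all genes and cannot decide pairing for the histone members, whose own correlation is not given here. Of 62 tested members, 52 (83.9%) rose with replicate number in both groups, against 7.87% of the other tested genes. The labels do not say whether equal numbers mark a shared batch, and this was not tested. With the replicate block 0 histone members were called.

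Of 493 values of named genes under alternatives, 437 kept direction and call, 7 lost a call, 5 gained one and 44 changed sign; none of the 44 passed the test. With library weights the sign turned for HIST1H2BD (0.232), HIST1H2BG (0.424), HIST1H4E (0.234), HIST1H4C (0.125), SNRPD3 (0.163), H2AFZ (0.111) and PCNA (0.0617). Quantile normalization turned HIST1H2BD (0.0129), HIST1H2BG (0.183) and HIST1H4E (0.222). TMM scaling turned HIST1H2BG (0.0323) and HIST1H4E (0.0286), median ratio scaling the same genes (0.0373 and 0.0336), and a pseudocount of 0.1 SNRPB (-0.000761). Without both libraries 1 HIST1H2BG (0.152), SNRPD3 (0.0736) and H2AFZ (0.116) turned. Leaving out 1 library gave -0.33 to 0.40 for HIST1H1C, -0.0334 to 0.735 for HIST1H2AG, -0.57 to 0.31 for HIST1H2BD, -0.37 to 0.47 for HIST1H2BG, -0.31 to 0.51 for HIST1H3B, -0.48 to 0.38 for HIST1H4E, -0.88 to 0.0556 for HIST1H4C, -0.26 to 0.503 for SNRPB, -0.471 to 0.144 for SNRPD3, -0.506 to 0.0998 for H2AFZ, -0.563 to 0.000841 for PCNA, -0.11 to 0.322 for MCM7 and -0.18 to 0.683 for HIST2H2BF.

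Unknown depth limits what the lowest members show, and exact tests of 3 against 3 cannot go below 0.1.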
